A study of Mus musculus with 6 samples.

Results

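The genes that make, break down and sense cyclic AMP were examined in BCR-ABL1-transformed mouse pre-B cells transduced with Blnk or with the control vector pMIG. Members were chosen by name: every gene whose symbol starts with Pde or Adcy and a digit, or with Prkaca, Prkacb, Prkar1 or Prkar2, as read by a probe annotated to that symbol alone. This gave 41 of 19938 measured genes, namely 26 named as phosphodiesterases, 10 adenylyl cyclases and 5 subunits of protein kinase A (PKA). This name rule was set with earlier results of these data known. Within the rule, measured values entered only through brightness, since the brightest probe over all 6 arrays stood for a gene. That mattered for 1 member, Pde4d, which had 3 probes. Prkaca, a catalytic PKA subunit, was read by no such probe and is not analysed here.

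All 6 samples were total RNA of GFP-positive cells, sorted 5 days after transduction, from cells labelled Blnk KO with BCR-ABL1-driven ALL, of Balb/c mice aged 4 weeks. By these labels, both groups share the fusion kinase and the knockout. The 3 control samples were transduced with pMIG, the GFP-carrying retroviral vector, and the 3 others with Blnk, also named Slp65, an adaptor protein of pre-B cell receptor signalling. The labels name neither separate mice nor separate cultures for the replicates of a group, so the spread behind each p-value may be only technical. Each sample was 1 Affymetrix array, and values are linear probe intensities.

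Cyclic AMP is made from ATP by adenylyl cyclases, most of them membrane enzymes under the control of G proteins. Phosphodiesterases hydrolyse it, cyclic GMP or both. Cyclic AMP releases the catalytic subunits of PKA from the regulatory ones, and PKA then phosphorylates many targets, the transcription factor CREB among them. In lymphocytes a rise in cyclic AMP is known to dampen antigen receptor signalling.

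Blnk itself was read at intensities of 972, 926 and 1013 in the pMIG samples and 2714, 3342 and 3022 in the Blnk samples. Each Blnk sample was well above each pMIG sample. The pMIG samples, although also labelled Blnk KO, read far above the array medians at this probe, and whether it lies within the deleted part of the gene is not known here, so it does not check the knockout label. Over all genes, 720 (3.61%) passed an adjusted p of 0.05, of which 500 (2.51%) rose and 220 (1.10%) fell with Blnk. Repeating quantile normalization moved this balance to 411 and 327. Array medians were 67.0 to 70.0, and a probe near or below them is called dim here. Of 10 measured B-lineage markers, 8 were above the median on all arrays, Rag1 and Dntt were dim on all, and the summed level was 31188 to 32220 with pMIG and 30691 to 32243 with Blnk. Within this sum, members moved in opposite directions. Cd79a, a signalling chain of the B cell receptor, rose from 4943 ± 53.8 to 6126 ± 227 (SD, n = 3; log2 0.31, limma adjusted p = 0.0468), a call that ended with any 1 array left out (0.0678 to 0.151). Vpreb1, a surrogate light chain of the pre-B cell receptor, fell from 1746 ± 122 to 1090 ± 116 (log2 -0.68, limma adjusted p = 0.00976), a call that ended without pMIG 2 (0.0502) or pMIG 3 (0.0688). The part of these markers in the results that follow was not tested. Summed markers of T and NK cells were 427 to 512 and 444 to 546, of myeloid cells 318 to 348 and 332 to 349, of erythroid cells and megakaryocytes 239 to 282 and 248 to 291, and of stromal and endothelial cells 430 to 533 and 442 to 511. Above the median on all arrays were 2 T and NK markers (Cd3e, Cd8a) and 2 stromal ones (Col1a1, Col1a2). Cd8a read 185, 149 and 176 with pMIG and 184, 255 and 134 with Blnk. Of the 37 measured markers of other cells, 0 passed by limma, and 1, the endothelial Cdh5, had an unadjusted p under 0.05. Of all genes, 3.61% passed and 15.2% had such a p. In bulk RNA, fewer cells of a type and less RNA per cell cannot be told apart.

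Among the genes named as phosphodiesterases, 3 of 26 fell with Blnk and 0 rose: Pde2a, Pde11a and Pde4d. The control level was 1.50 times the Blnk level for Pde2a, 1.52 times for Pde11a and 1.32 times for Pde4d. This share of 11.5% falling is set beside the 1.10% of all genes that fell, and the median of the class lay at -0.027 on the log2 scale, beside 0 for all genes. Most of the family thus lay near 0, and 3 named enzymes made up the calls.

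Pde2a, a hydrolase of both nucleotides that cyclic GMP itself stimulates, read 2533, 2602 and 2502 in the pMIG samples and 1792, 1597 and 1695 in the Blnk samples. Every Blnk sample was below every pMIG sample by a wide margin. The means were 2546 ± 51.2 and 1695 ± 97.5 (SD, n = 3), a 1.50-fold fall (log2 -0.59, SE 0.071; limma adjusted p = 0.00409). The call held with any 1 array left out, with adjusted p up to 0.0320 (without pMIG 3).

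Pde11a, which also hydrolyses both nucleotides, read 88, 102 and 90 with pMIG and 61, 62 and 61 with Blnk. The Blnk values were almost identical and lay below the array medians, while all pMIG values were above them. The means were 93.3 ± 7.57 and 61.3 ± 0.577 (SD, n = 3), a 1.52-fold fall (log2 -0.60, SE 0.078; limma adjusted p = 0.00579). Pde11a also passed with any 1 array left out, up to 0.0414 (without Blnk 2).

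Pde4d belongs to the cyclic AMP-specific subfamily that rolipram inhibits. Its brightest probe read 146, 140 and 152 with pMIG and 106, 112 and 115 with Blnk. The groups did not overlap, with means of 146 ± 6.0 and 111 ± 4.58 (SD, n = 3; log2 -0.40, SE 0.070; limma adjusted p = 0.0243). The call was lost when any 1 array was left out: leaving out pMIG 1, 2 or 3 gave adjusted p of 0.0746, 0.0632 or 0.115, and leaving out Blnk 1, 2 or 3 gave 0.0795, 0.0907 or 0.0717, with log2 values from -0.43 to -0.36. A dim further probe of Pde4d read 31, 37 and 36 against 29, 30 and 27, again with no overlap. The remaining probe, at 8, 10 and 7 against 9, 8 and 10, was near the floor of the array and showed no difference. With the mean of the 3 probes in place of the brightest, Pde4d stood at -0.18 (adjusted p = 0.296).

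Pde8a, a high-affinity cyclic AMP hydrolase, was the member next to the threshold. It read 1158, 1212 and 1174 with pMIG and 1011, 921 and 959 with Blnk, so the groups were separate. The log2 difference was -0.29 (SE 0.069; limma adjusted p = 0.0667). It passed under 4 of the 13 alternatives run: repeated quantile normalization (0.0261), dim genes left out (0.0207), 16 added before the log (0.0223) and an intensity-dependent variance prior (0.00752).

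**Figure D1:**
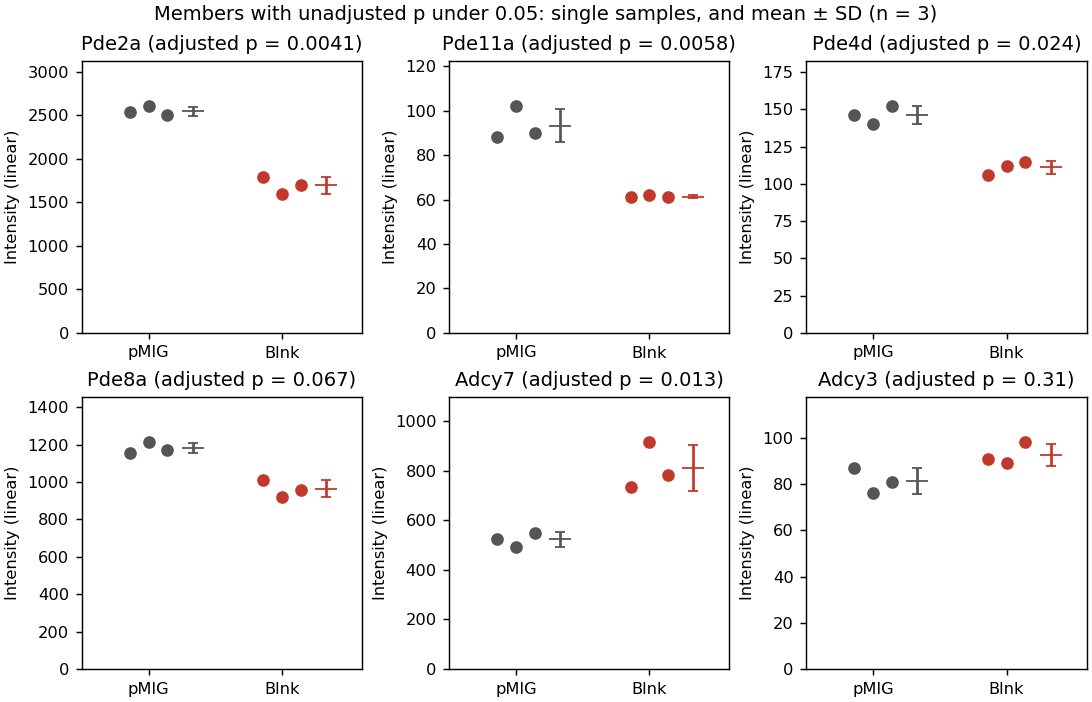
Linear intensity (vertical axes, starting at 0) of the 6 members with an unadjusted limma p under 0.05, as single pMIG (grey) and Blnk (red) samples beside mean ± SD (n = 3). These are 6 of 41 members, while 15.2% of all genes had such a p. Pde2a, Pde11a, Pde4d and Pde8a are lower and Adcy7 and Adcy3 higher in each Blnk sample than in any pMIG sample; Pde8a (adjusted p = 0.0667) and Adcy3 (0.315) do not pass.

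The other members of the Pde4 subfamily did not pass. Pde4b, the form prominent in leukocytes, read 94, 109 and 96 against 87, 96 and 97 (log2 -0.09, 95% interval -0.29 to 0.11), and Pde4c stood at 0.06. Pde4a was dim, at 54, 52 and 68 against 57, 73 and 70 (0.20, interval -0.11 to 0.51). Pde7a, a cyclic AMP hydrolase of lymphocytes, read 334, 317 and 348 against 371, 433 and 347, where Blnk 3 lay within the pMIG range (0.20, adjusted p = 0.392). Pde7b and Pde8b were dim, at -0.03 each.

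Of the enzymes for both nucleotides, Pde1b, which calcium and calmodulin activate, read 901, 863 and 968 against 723, 975 and 853, with Blnk 2 the highest of all samples (log2 -0.11, interval -0.37 to 0.16). Pde3b, which cyclic GMP inhibits, read 504, 620 and 599 against 646, 620 and 553 (0.08, interval -0.16 to 0.32). Both were well above the array medians, and their groups overlapped. Pde1a, Pde1c, Pde3a and Pde10a were dim, from -0.10 (Pde1a) to 0.23 (Pde10a).

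The 5 hydrolases specific for cyclic GMP, Pde5a, Pde6a, Pde6b, Pde6c and Pde9a, were below the median on all arrays and lay between -0.06 (Pde6c) and 0.20 (Pde6b). Nothing can be said of changes that such weak signals would hide. Pde6d, a chaperone of prenylated proteins that is named for the photoreceptor enzyme, read 921, 922 and 985 against 912, 872 and 911, separate by a narrow gap but not called (-0.07, adjusted p = 0.712). The inhibitory photoreceptor subunits Pde6g and Pde6h stood at 0.15 and 0.08. Pde12, an exonuclease of mitochondrial RNA, and Pde4dip, a scaffold of the centrosome and Golgi, match by name only and are no cyclic nucleotide hydrolases. They stood at 0.13 and -0.01.

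Among the cyclases, 1 of 10 rose, Adcy7, beside 2.51% of all genes, and 0 fell, beside 1.10%. Adcy7, a membrane cyclase known for its role in blood cells, read 525, 493 and 551 with pMIG and 735, 915 and 785 with Blnk. All Blnk samples were higher, and they spread more widely than the controls. The means were 523 ± 29.1 and 812 ± 92.9 (SD, n = 3), a 1.55-fold rise (log2 0.63, SE 0.097; limma adjusted p = 0.0125). The log2 value was 0.54 to 0.70 with any 1 array left out, but the call was lost without pMIG 1 (adjusted p = 0.0618), pMIG 2 (0.0638), pMIG 3 (0.0621) or Blnk 3 (0.0661) and kept without Blnk 1 (0.0297) or Blnk 2 (0.0460).

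Adcy3, the cyclase best known from olfactory neurons, read 87, 76 and 81 against 91, 89 and 98. These groups were separate by a small gap (log2 0.19, SE 0.079; limma adjusted p = 0.315). The other 8 cyclases were at or below the median on at least 1 array. They ranged from -0.09 (Adcy5) to 0.12 (Adcy2), and in all 8 the groups overlapped. Adcy4 varied most within groups, at 96, 83 and 72 against 67, 81 and 100. Adcy6 read 67, 50 and 54 against 64, 52 and 55, and Adcy9 84, 62 and 65 against 74, 68 and 80, in both cases with pMIG 1 the highest sample. The soluble cyclase Adcy10, at 13 to 15 on every array, was near the bottom of the scale.

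Of the 5 PKA subunits, 0 passed in either direction by limma, with 0 at an unadjusted p under 0.05. Beside 3.61% and 15.2% of all genes, 0 of only 5 says little. The catalytic subunit Prkacb read 1646, 1677 and 1598 with pMIG and 1565, 1440 and 1574 with Blnk, separate by a narrow gap (log2 -0.10, interval -0.27 to 0.056). Prkar1a, the regulatory subunit that most cells carry, read 1564, 1583 and 1639 against 1777, 1620 and 1743, with Blnk 2 inside the control range (0.10, interval -0.059 to 0.26). Prkar2b, another regulatory subunit, stood at -0.10 (interval -0.27 to 0.066). These intervals leave room for small changes either way.

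Prkar2a, a regulatory subunit that anchoring proteins bind, read 155, 166 and 164 with pMIG and 238, 169 and 175 with Blnk. The groups were separate, but Blnk 1 stood far above the others, and the interval was wide (0.25, interval -0.056 to 0.55; adjusted p = 0.440). Prkar1b was dim, at 44, 55 and 42 against 48, 47 and 49.

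**Figure D2:**
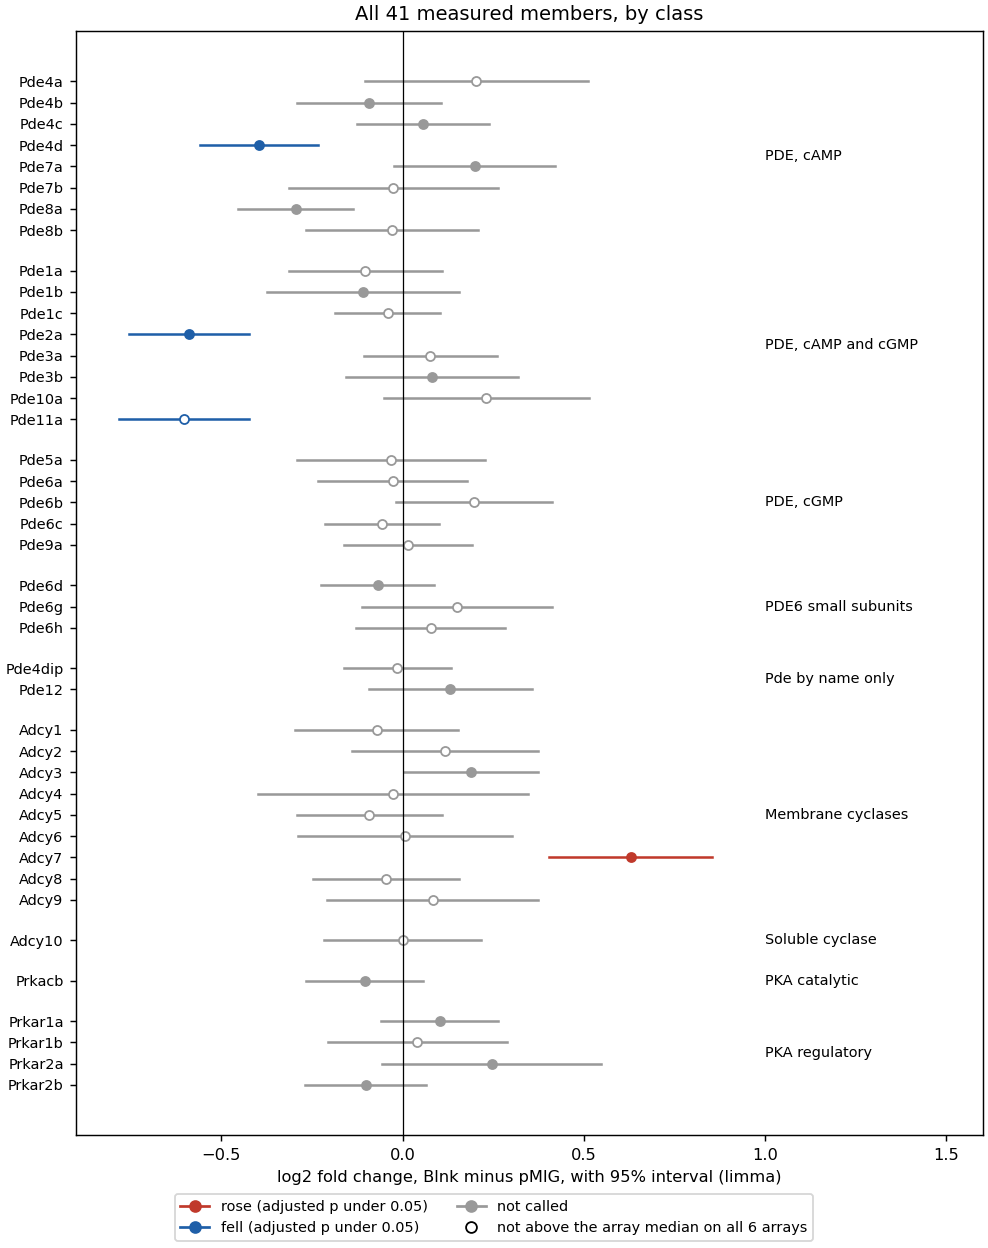
Log2 fold change (Blnk minus pMIG, horizontal axis) of the 41 members with limma 95% intervals, grouped by role on the vertical axis; open points were not above the array median on all 6 arrays. Pde2a, Pde11a and Pde4d (blue, fell) and Adcy7 (red, rose) passed an adjusted p of 0.05, and 37 members (grey) did not.

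Set against each other, 3 of 26 genes named as phosphodiesterases fell and 0 rose, whereas 1 of 15 cyclase and PKA genes rose and 0 fell. The 26 include 3 PDE6 inhibitory or delta subunits and 2 genes that match by name only. In all, 4 of 41 members passed (9.76%, beside 3.61% of all genes). Only 16 members were above the array median on all arrays, and 3 of these passed, beside 6.19% of all such genes. Groups were separate for 9 members (22.0%), which is near the 20.0% of all genes. Blnk was the lower group in 6 of these (8.15% of all genes) and the higher in 3 (11.8% of all genes). The class medians were -0.027 for phosphodiesterases, 0.0028 for cyclases and 0.040 for PKA subunits, beside 0 over all genes, and each had values on both sides of 0 when single arrays were left out. For cyclases the median was 0.10 without pMIG 1 and -0.031 without pMIG 3. The contrast between classes is a description: the members were named with results of these samples known, and the classes as such were not tested against each other.

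Sample by sample, the median deviation of the phosphodiesterases from the control mean was -0.0086, 0.033 and -0.017 in the pMIG samples and -0.0066, -0.033 and -0.032 in the Blnk samples. For cyclases it was 0.16, -0.093 and -0.068 against 0.090, -0.036 and 0.12, with pMIG 1 the highest sample. For PKA subunits it was -0.060, 0.039 and -0.0069 against 0.041, 0.010 and 0.070. In each class the ranges of the groups overlapped.

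**Figure D3:**
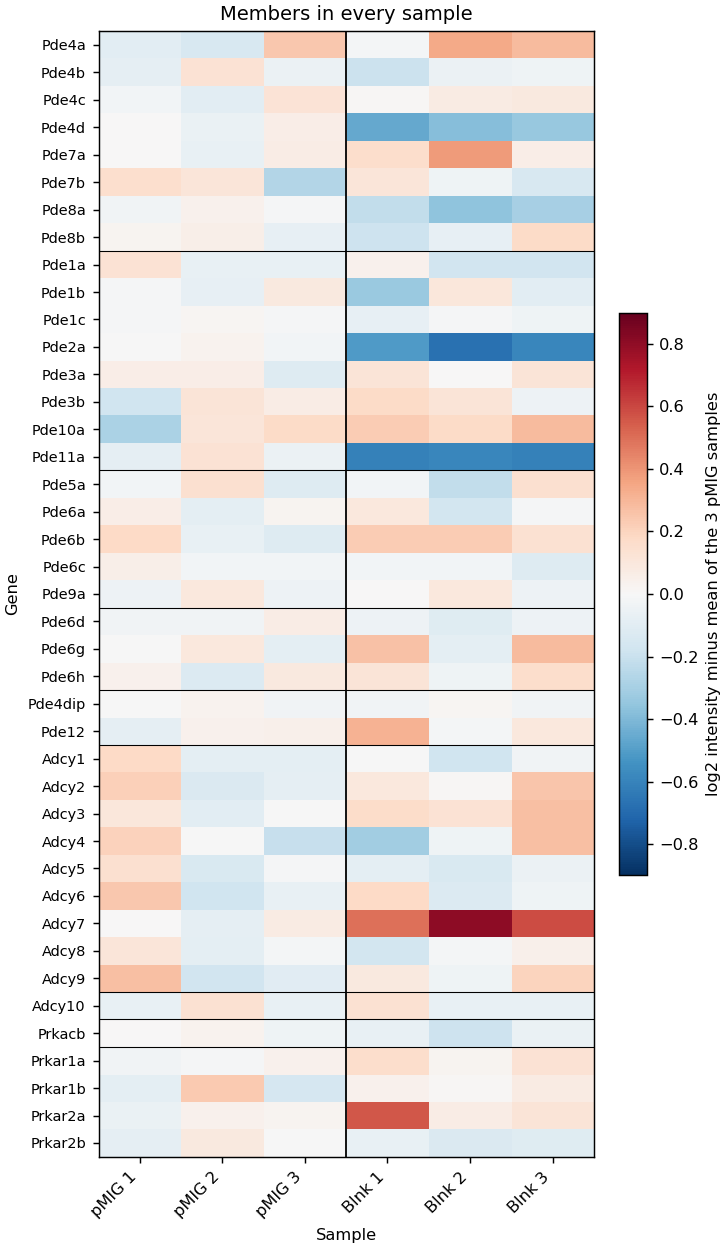
Log2 intensity minus the mean of the 3 pMIG samples (colour scale) for the 41 members (rows, by role) in each sample (columns). Pde2a, Pde11a, Pde4d and Pde8a are blue and Adcy7 is red in all 3 Blnk columns; most other rows are pale, and Prkar2a is deep red in Blnk 1 alone.

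CREB binds the cyclic AMP response element, so the 250 bases before the listed transcription starts were searched for TGACGTCA, the full element, and for TGACG, its core, on both strands; each full element also holds the core on both strands. RefSeq sequences (GRCm38.p6) were found for 32 of the 41 members, in 69 windows. The full element was in 1 of the 69 windows (1.45%), beside 1.55% of all 32851 windows, and the core in 12 (17.4%), beside 17.8%. The windows of the members therefore carried these letters about as often as all windows did. Windows of the same gene can overlap, as for Prkar1a, and no share per gene was taken over all genes. The windows of the 4 called genes are shown, at the farthest upstream listed start where there were several, with the Prkar1a window that holds the full element for comparison. Capitals mark the core or full element; a sequence with no capitals holds neither.
Adcy7 (chr8:88282742-88282991, plus strand): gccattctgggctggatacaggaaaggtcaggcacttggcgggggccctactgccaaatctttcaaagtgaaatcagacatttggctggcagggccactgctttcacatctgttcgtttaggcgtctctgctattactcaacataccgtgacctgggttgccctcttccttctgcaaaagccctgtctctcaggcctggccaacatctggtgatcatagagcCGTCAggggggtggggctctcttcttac
Pde2a (chr7:101421441-101421690, plus strand): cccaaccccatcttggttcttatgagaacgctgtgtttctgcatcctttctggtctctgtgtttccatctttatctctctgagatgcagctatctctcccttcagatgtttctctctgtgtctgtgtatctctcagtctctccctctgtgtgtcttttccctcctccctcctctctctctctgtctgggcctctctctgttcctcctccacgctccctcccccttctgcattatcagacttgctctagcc
Pde11a (chr2:76338939-76339188, minus strand): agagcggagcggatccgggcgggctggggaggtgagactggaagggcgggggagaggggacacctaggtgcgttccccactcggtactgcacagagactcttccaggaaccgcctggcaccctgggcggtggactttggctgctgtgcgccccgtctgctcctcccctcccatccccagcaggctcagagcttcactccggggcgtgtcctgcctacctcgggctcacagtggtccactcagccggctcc
Pde4d (chr13:108653927-108654176, plus strand): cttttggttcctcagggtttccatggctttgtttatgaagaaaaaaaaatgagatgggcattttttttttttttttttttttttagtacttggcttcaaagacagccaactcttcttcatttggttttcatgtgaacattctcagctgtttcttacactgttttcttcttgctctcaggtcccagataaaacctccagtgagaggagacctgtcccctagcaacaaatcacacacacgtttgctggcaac
Prkar1a (chr11:109650699-109650948, plus strand): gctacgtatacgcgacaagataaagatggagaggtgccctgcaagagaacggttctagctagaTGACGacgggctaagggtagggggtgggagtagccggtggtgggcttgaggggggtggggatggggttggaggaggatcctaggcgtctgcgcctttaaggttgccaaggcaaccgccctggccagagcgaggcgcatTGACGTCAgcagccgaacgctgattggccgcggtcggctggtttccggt

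In this Adcy7 window the core stood on the opposite strand, starting 28 bases before the transcription start, and the other 2 Adcy7 windows had none. None of the 5 Pde2a windows and neither the Pde11a nor the Pde4d window had one. The only full element lay 49 bases before a start of Prkar1a, whose transcript did not pass. Which starts these cells use was not measured.

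Other genes of the pathway were taken from 9 lists. Of 109 listed symbols, 97 were measured. Of these 97 genes, 3 rose and 6 fell (9.28% called, beside 3.61% of all genes), with a median of 0.0080. Upstream of the cyclases, 2 of 26 measured receptors that couple to the stimulatory G protein fell, beside 1.10% of all genes, and 0 rose. Mc1r, the melanocortin receptor of pigment cells, dropped from 280 ± 51.4 to 85.7 ± 4.51 (SD, n = 3; log2 -1.69, adjusted p = 0.000527), and Vipr1, a receptor for vasoactive intestinal peptide, from 115 ± 5.69 to 78.0 ± 6.25 (-0.57, adjusted p = 0.0104). Mc1r passed with any 1 array left out, and Vipr1 lost its call without pMIG 1 (0.0537) or pMIG 2 (0.0548). The prostaglandin receptor Ptger4 stood at 0.27 (adjusted p = 0.0881).

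Of 6 measured G protein alpha subunits, 1 fell, beside 1.10% of all genes: Gnao1, of the inhibitory class, from 147 ± 2.89 to 102 ± 8.33 (SD, n = 3; log2 -0.52, adjusted p = 0.0119). Its call was lost on leaving out pMIG 1 (0.0527), 2 (0.0542) or 3 (0.0796) or Blnk 2 (0.0595). Its relatives Gnai1 (-0.52, adjusted p = 0.126) and Gnai2 (0.23, adjusted p = 0.141) lay on opposite sides of 0. Among 14 anchoring proteins of PKA, 1 likewise fell (1.10% of all genes), Akap12, from 527 ± 47.3 to 402 ± 1.15 (-0.39, adjusted p = 0.0470). Leaving out pMIG 3 kept this call (0.0432); each of the other 5 arrays ended it (0.143 to 0.161).

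Downstream, 1 of 11 CREB factors, coactivators and SIK kinases rose, beside 2.51% of all genes. Sik1, a kinase that CREB induces and that restrains CREB coactivators, went from 131 ± 6.35 to 214 ± 10.6 (SD, n = 3; log2 0.70, adjusted p = 0.00208) and passed with any 1 array left out. Crtc2, such a coactivator, stood at 0.42 (adjusted p = 0.0936) and Crem at 0.35 (adjusted p = 0.123). Genes that CREB can induce went both ways: of 15 measured, 2 rose, Egr1 (0.52, adjusted p = 0.0128) and Nr4a1 (0.34, adjusted p = 0.0359), and 2 fell, Fosb (-0.82, adjusted p = 0.00822) and Atf3 (-0.50, adjusted p = 0.00918). This is 26.7% called, beside 3.61% of all genes, of which 2.51% rose and 1.10% fell. All 4 also respond to other signals, such as calcium, growth factors or stress. Nr4a1 lost its call whichever array was left out (0.0829 to 0.133) and after repeated quantile normalization (0.0518) or centring (0.0784). Leaving out pMIG 3 ended the calls of Egr1 (0.0698), Fosb (0.0572) and Atf3 (0.0568). Those of Egr1 and Fosb also ended without Blnk 1 (0.0668 and 0.0601) or Blnk 3 (0.0739 and 0.0552), and that of Egr1 without pMIG 2 (0.0508).

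In the remaining lists 0 genes passed by limma, and 0 had an unadjusted p under 0.05, beside 3.61% and 15.2% of all genes. The smallest adjusted p belonged to Pkia (0.560) among 3 PKA inhibitor peptides, to Hcn4 (0.440) among 4 other cyclic AMP effectors, to Gucy2g (0.450) among 16 genes of cyclic GMP synthesis and signalling, and to Abcc5 (0.500) among 2 exporters of cyclic nucleotides. The 16 cyclic GMP genes were below the median on all arrays, as were the cyclic GMP-specific hydrolases.

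**Figure D4:**
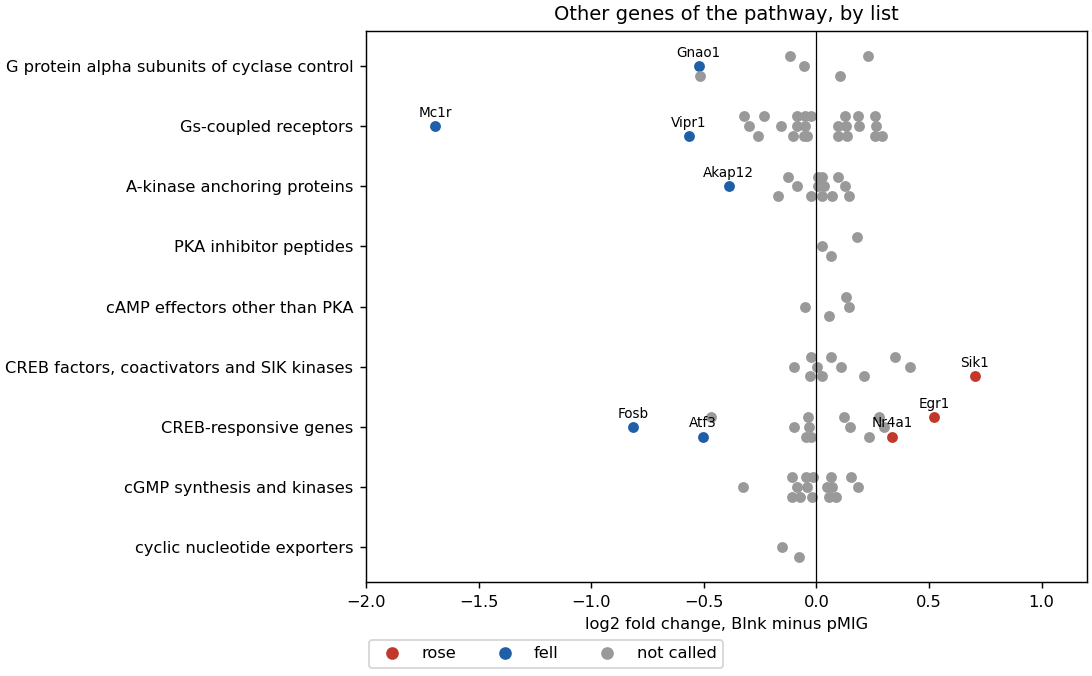
Log2 fold change (Blnk minus pMIG, horizontal axis) of the 97 measured genes in 9 lists of the pathway (vertical axis), 1 point per gene. The 9 called genes are named: Mc1r lies farthest out at -1.69, Sik1, Egr1 and Nr4a1 rose, and the CREB-responsive list has genes on both sides.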

How the data were processed

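The deposited values are linear-scale intensities, 1 whole number per probe and array, from 3 to 22187, and the submitters' processing notes name RMA without a version. That RMA values were returned from the log scale and rounded is inferred from the values. Because of this rounding and the small number of arrays, dim probes carry little precision. Of 35421 probes, 21789 had 1 symbol from the platform annotation table, 1621 had several and 12011 had none. The brightest single-symbol probe stood for each of 19938 genes.

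In R 4.3.3, a limma 3.58.1 model (lmFit, eBayes) with a group term alone was fitted to log2 intensities of all genes, with two-sided tests, Benjamini-Hochberg adjustment over all genes and a threshold of 0.05, and the fit was tested on simulated data. Log2 fold changes are Blnk minus pMIG, intervals are 95% limma intervals, and medians of lists were not tested. Alternatives were quantile normalization, median centring, a block for the replicate number, genes below the 40th percentile left out, 16 added before the log, all probes averaged, a trended prior, and each array left out.

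Named genes are Blnk, members with a p under 0.05, and for each pathway list the genes past the threshold, or the one with the smallest p; other genes were named after their values were seen. Members and lists were chosen with earlier results of these data known. Members of a gene family may share probe signal.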

Additional observations from a re-analysis of the deposited data

How the results depend on the processing

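Pde2a, Pde11a, Mc1r, Sik1 and Blnk kept their direction and stayed past the threshold in all 13 alternatives, and no followed gene changed sign in any. Deviations of same-numbered samples from their group means correlated at -0.19, 0.058 and -0.12 across genes, which showed no pairing by replicate number. Differently numbered samples gave -0.21 (pMIG 2 with Blnk 3) to 0.28 (pMIG 1 with Blnk 3). Deviations within a group cancel for each gene, so these correlations cannot settle whether samples were handled together. With the replicate block, 2 phosphodiesterases fell, 0 cyclases and 0 members rose (Adcy7 adjusted p = 0.0778), 2 pathway genes fell, and over all genes 208 rose and 81 fell. With dim genes left out, 4 phosphodiesterases fell, 6 pathway genes rose, and of the 11963 genes still tested 807 rose and 421 fell. With a trended prior 6 pathway genes rose, and 891 genes rose and 422 fell; with 16 added before the log, 5 pathway genes rose and 359 genes fell. The phosphodiesterase median was -0.051 after quantile normalization and -0.062 after centring. The median of all genes moved too, to -0.033 and -0.035. With each array left out in turn, 2 phosphodiesterases fell every time, 0 to 1 cyclases and 0 to 1 members rose, 1 to 2 pathway genes rose and 3 to 5 fell, and over all genes 195 to 304 rose and 72 to 133 fell. In these fits the class medians were -0.033 to 0.0065 for phosphodiesterases, -0.031 to 0.10 for cyclases and -0.036 to 0.097 for PKA subunits. With dim genes left out the cyclase median was 0.083, but over only the cyclases that were kept. Fewer arrays weaken the test by construction, and the replicate block leaves fewer residual degrees of freedom. Neither the block nor leaving out dim genes changed the log2 value of a gene (Adcy7 0.63 in both). The cause of the other shifts was not tested. Signal limits what can be said of the 20 members below the array median on all 6 arrays and the 5 below it on some.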
